A study of Danio rerio with 4 samples.

Results

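Genes of the contractile apparatus were compared between whole zebrafish larvae labelled as uhrf1 mutant and wildtype larvae, all at 120 hours post fertilization. Members were the probe sets on the array whose single annotated gene symbol names a myosin heavy or light chain, a myosin light chain kinase, a myosin-binding protein, a troponin, a tropomyosin, a muscle actin, an alpha-actinin, desmin, a muscle or mitochondrial creatine kinase, a parvalbumin, a SERCA calcium pump (atp2a), calsequestrin, titin, nebulin or a tropomodulin. Earlier results of these data were known when the members were chosen. The name alone placed a probe set among them, and no measured value entered the rule. It matched 81 of 15617 probe sets. Of these, 4 are array controls for the actin gene actc1b and were left out of the tests, and the other 77, which measure 64 of the 8793 genes with a tested probe set, were tested among 15502 probe sets.

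There were 2 mutant arrays (replicates 1 and 2) and 2 wildtype arrays (replicates 1 and 3), each hybridised with biotin-labelled total RNA. The labels' growth protocol says that offspring of carriers with 1 copy of the hi272 allele of uhrf1 were used for most experiments of the study, and does not say whether the wildtype larvae were their siblings. It also names a line in which the fabp10 promoter, a driver for hepatocytes, expresses human UHRF1 fused to GFP, and no array is labelled with that transgene. Neither pooling of larvae nor separate clutches for the replicates is stated, and the p-values therefore reflect the spread of these samples alone, which may be technical. In whole larvae, fewer cells of a type and less RNA per cell cannot be told apart.

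A sarcomere, the repeating unit of striated muscle, is built of thick filaments of myosin that pull on thin filaments of actin. Calcium released from the sarcoplasmic reticulum binds troponin, which moves tropomyosin and lets myosin reach actin. SERCA pumps return the calcium, and parvalbumin, a soluble calcium buffer abundant in fish fast muscle, speeds relaxation. Titin and nebulin are giant proteins that span the sarcomere and the thin filament, alpha-actinin anchors thin filaments at the Z-disc, and desmin filaments link neighbouring myofibrils. Fast, slow and cardiac fibres use different paralogues of most of these proteins, and smooth muscle and other cells use further myosins, actins and light chains. UHRF1 binds hemimethylated DNA and recruits the maintenance methyltransferase DNMT1.

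By this knowledge of zebrafish and mammalian muscle, 22 probe sets (20 genes) were placed with fast skeletal muscle, 4 (4 genes) with slow skeletal muscle, 12 (11 genes) with the heart, 5 (4 genes) with smooth muscle, 21 (15 genes) with structures shared by striated muscles, and 13 (10 genes) with cells outside muscle. The shared striated class took in all creatine kinases, mitochondrial forms included, and tmod2 by name, whether or not other cells express them. Whole-larva arrays cannot check this placement. Levels are given as RMA intensities on a linear scale. A change is the mutant mean less the wildtype mean of log2(intensity + 1), with limma's moderated standard error (SE), and a probe set was called at a limma adjusted p under 0.05.

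The 4 arrays had median intensities of 29.4 to 31.5 over the tested probe sets. Signals of the 18 hybridisation controls, transcripts added in fixed amounts, averaged 0.49 lower (log2) on the mutant arrays, and 17 of the 18 were lower on both. The median log2 change of all tested probe sets was -0.04, and 0.45 when the arrays were scaled on these controls, so every change below is set against the other probe sets. The brighter uhrf1 probe set read 41.1 and 26.3 in mutants against 47.4 and 41.5 in wildtype larvae, at an adjusted p by limma of 0.56, and the dimmer uhrf1 probe set read between 8.97 and 9.91. Markers of the exocrine pancreas, of which 9 fell in mutants, summed over 10 measured of 13 listed markers to between 2910 and 3154 in mutants and between 23038 and 30772 in wildtype larvae, and their part in the results below was not tested.

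By limma, 2 of the 77 probe sets were called, or 2.6% against 1.5% of all tested probe sets, and both were lower in mutants. Among all probe sets 0.845% were called higher and 0.658% lower. The 2 were pvalb5, a parvalbumin that was placed outside muscle, and desmb, one of the pair of zebrafish desmin genes. Before adjustment, 12 members had a limma p under 0.05, or 15.6% against 11.9% of all probe sets. Of these, 4 were higher, or 5.19% against 5.1%, and 8 were lower, or 10.4% against 6.84%. Both mutant arrays lay above both wildtype arrays for 21 members, or 27.3% against 14.9%, and below them for 16, or 20.8% against 26.3%. The median change of the 77 was 0.14, beside -0.04 for all probe sets, and 46 of the 77 lay above 0, or 59.7% against 39.9%. Leaving out mutant replicate 1 took that median to 0.021, while dropping wildtype replicate 3 gave 0.018 and dropping wildtype replicate 1 gave 0.22. For 67 of the 77 the 95% interval of the change lay within a 2-fold change in either direction, or 87% against 91.3% of all tested probe sets. With arrays scaled on the hybridisation controls 34 members were called, 33 of them higher and 1 lower, and 5127 probe sets in all were called higher and 96 lower.

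**Figure D1:**
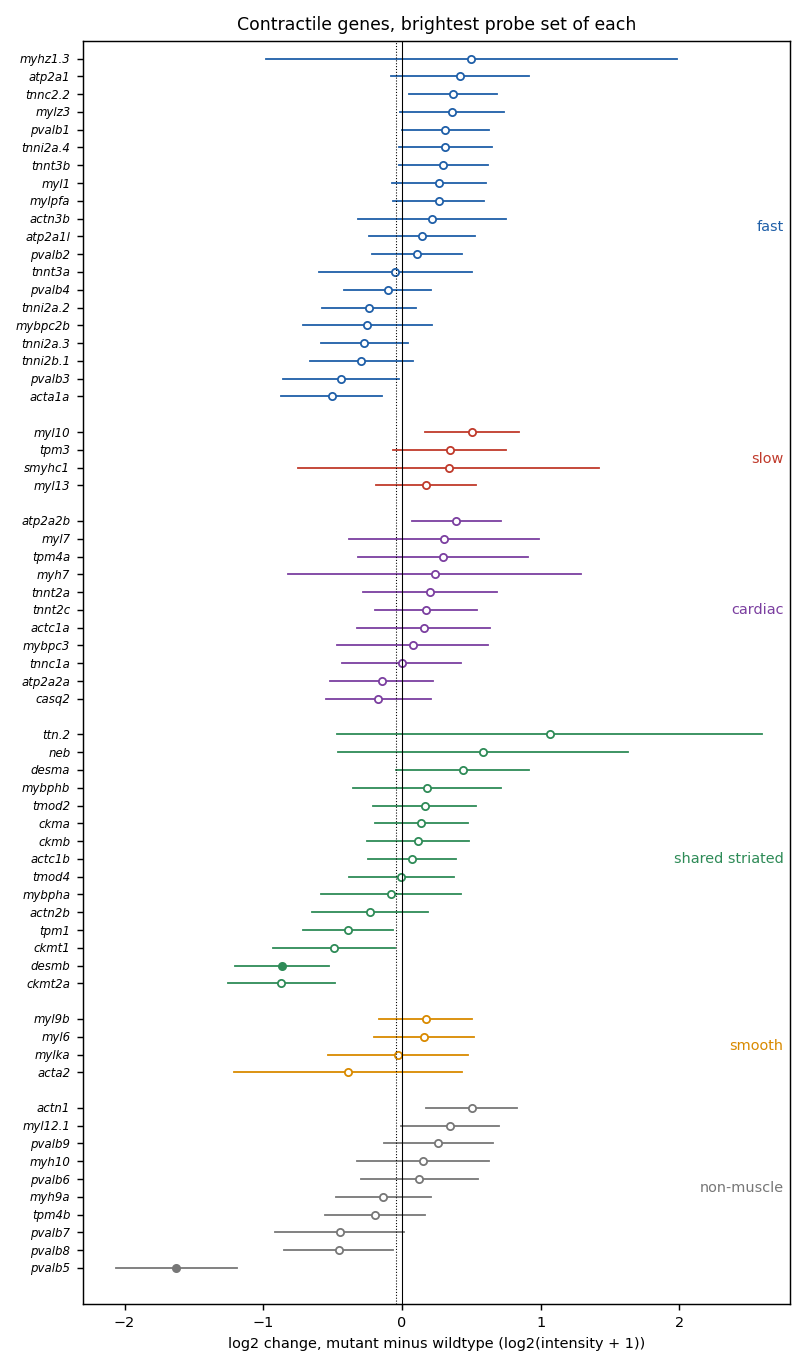
Log2 change (mutant minus wildtype, horizontal axis) of the brightest probe set of each of the 64 genes, with the 95% interval of the limma fit as a bar, grouped by class. Filled points passed the adjusted threshold (desmb and pvalb5), open points did not, and the dotted line marks the median of all tested probe sets at -0.04.

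Among fast-muscle members 0 of 22 passed in limma, against 1.5% of all tested probe sets. Before adjustment 1 was higher and 2 lower at a limma p under 0.05, against 5.1% and 6.84% of all probe sets. The median change of the fast members was 0.19. It became 0.039 when mutant replicate 1 was left out, 0.044 when wildtype replicate 3 was, and 0.33 when wildtype replicate 1 was. The thin-filament gene tnnc2.2, the calcium-binding troponin C of fast fibres, read 7543 and 7760 in mutants and 6103 and 5763 in wildtype larvae, a change of 0.37 ± 0.13 (SE) and an adjusted p by limma of 0.34. Both mutant arrays lay above both wildtype arrays, an order shown by 14.9% of all tested probe sets. Its brightest partner genes in the troponin complex, tnnt3b and tnni2a.4, had similar values, and the other fast troponin genes did not. The troponin T gene tnnt3b, whose product ties the complex to tropomyosin, read 7770 and 7484 against 6388 and 6030, a change of 0.30 ± 0.13 (SE). The inhibitory subunit gene tnni2a.4 read 5141 and 4900 against 4262 and 3829, a change of 0.31 ± 0.14 (SE). Groups did not overlap in either of these probe sets. A second probe set of tnni2a.4 read 2677 and 2369 against 2646 and 1907, a change of 0.16 ± 0.19 (SE) with overlapping groups. The dimmer troponin I genes tnni2a.2 and tnni2a.3 changed by -0.24 ± 0.14 and -0.27 ± 0.13 (SE). Both mutant arrays were lower in each, as in tnni2b.1 below. The troponin T gene tnnt3a changed by -0.05 ± 0.22 (SE) with overlapping groups.

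For the light chain genes of fast myosin, both mutant arrays lay above both wildtype arrays on the brightest probe set of each. The regulatory light chain gene mylpfa read 6667 and 6755 in mutants and 5857 and 5314 in wildtype larvae on its brighter probe set, a change of 0.27 ± 0.13 (SE), and its second probe set changed by 0.33 ± 0.21 (SE) with overlapping groups. The essential light chain genes mylz3 and myl1 changed by 0.36 ± 0.15 and 0.27 ± 0.14 (SE), with limma adjusted p-values of 0.44 and 0.54 and both mutant arrays higher in each. The heavy chain gene myhz1.3, the motor itself, read 2412 and 677 in mutants and 1251 and 652 in wildtype larvae. Its arrays differed more within a group than between groups, and its change of 0.50 ± 0.61 (SE) had a 95% interval from -0.98 to 1.98.

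Calcium handling in fast fibres was described by the pump and the buffers. The SERCA gene atp2a1 read 3428 and 2922 in mutants against 2810 and 1988 in wildtype larvae, a change of 0.42 ± 0.20 (SE), and its relative atp2a1l changed by 0.14 ± 0.16 (SE) with overlapping groups. The parvalbumin gene pvalb1 read 8428 and 8296 against 6774 and 6686, a change of 0.31 ± 0.13 (SE) and an adjusted p by limma of 0.42. The values of pvalb2 were 12503 and 12926 against 11389 and 12232, a change of 0.11 ± 0.13 (SE). For pvalb4, chosen after its values were seen, both mutant arrays were lower, at 1243 and 1215 against 1313 and 1329, a change of -0.10 ± 0.13 (SE).

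Other fast members read lower in mutants, and 8 of the 22 values lay below 0. The skeletal actin gene acta1a read 789 and 749 in mutants against 1195 and 1000 in wildtype larvae, a change of -0.51 ± 0.15 (SE) with an unadjusted limma p of 0.014 and an adjusted p of 0.24. Muscle actins are close to identical in sequence and their probes can cross-hybridise. The parvalbumin gene pvalb3 read 93.9 and 113 against 126 and 155, a change of -0.44 ± 0.17 (SE). The troponin I gene tnni2b.1 read 434 and 529 against 595 and 580, a change of -0.29 ± 0.15 (SE). In each of these the mutant arrays lay below the wildtype arrays, an order shown by 26.3% of all probe sets. Of these genes, tnni2b.1 was chosen after its values were seen, as were tnni2a.4, mylz3, myl1 and atp2a1l above.

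**Figure D2:**
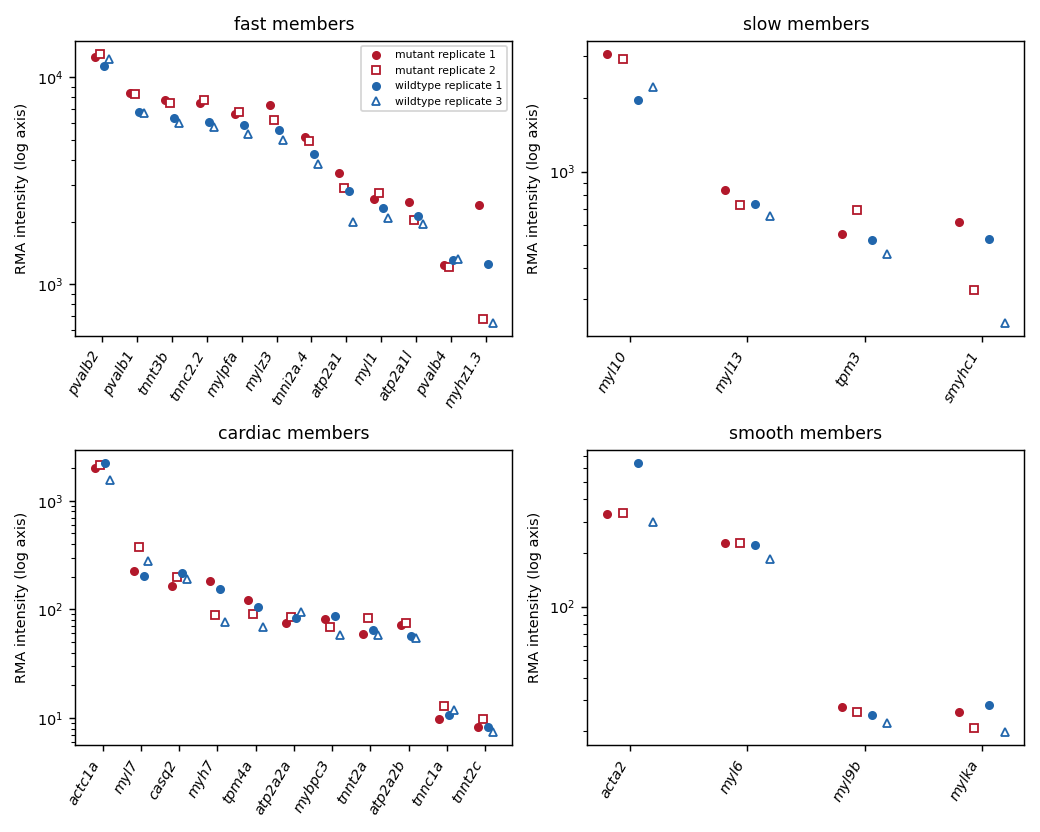
RMA intensity (log axis) on each of the 4 arrays for the brightest fast genes and for all slow, cardiac and smooth genes, 1 probe set a gene, with red for mutant and blue for wildtype arrays. Mutant arrays sit slightly above wildtype arrays for most bright fast genes, while myhz1.3, smyhc1, myh7 and acta2 differ between arrays of the same group.

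All 4 slow-muscle members had values above 0, against 39.9% of all tested probe sets, with a median change of 0.34 (0.17 without wildtype replicate 3). None of the 4 passed in limma. Before adjustment 1 had a limma p under 0.05, against 11.9% of all probe sets. The light chain gene myl10 read 3039 and 2901 in mutants and 1975 and 2221 in wildtype larvae, a 1.42-fold ratio of means and a change of 0.50 ± 0.14 (SE). Its unadjusted limma p was 0.011 and its adjusted p 0.21, and the groups did not overlap. The tropomyosin gene tpm3 read 554 and 692 against 521 and 456, a change of 0.34 ± 0.17 (SE). The light chain gene myl13 read 836 and 728 against 732 and 654 and its groups overlapped. The slow myosin heavy chain gene smyhc1, the defining gene of slow fibres, read 621 and 325 in mutants and 529 and 239 in wildtype larvae. Its groups overlapped and its 95% interval ran from -0.75 to 1.42, which includes a 2-fold rise as well as 0. Fast and slow medians were not tested against each other.

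None of the 12 cardiac members passed in limma. Before adjustment 1 had a limma p under 0.05, against 11.9% of all tested probe sets. The median change of the cardiac members was 0.17. It became 0.022 when wildtype replicate 3 was left out, 0.077 when mutant replicate 2 was, and 0.28 when wildtype replicate 1 was. Over all tested probe sets the groups overlapped for 9106 of 15502, and among the cardiac members for 11 of the 12. The exception was atp2a2b, a SERCA gene of the heart's type, which read 71.5 and 75.6 in mutants and 56.8 and 54.7 in wildtype larvae, a change of 0.39 ± 0.13 (SE) and an adjusted p by limma of 0.31. Its paralogue atp2a2a read 74.6 and 85.7 against 82.4 and 95.1, a change of -0.14 ± 0.15 (SE). The heart light chain gene myl7 read 225 and 377 in mutants against 202 and 277 in wildtype larvae, with overlapping groups and a change of 0.30 ± 0.28 (SE). The cardiac actin gene actc1a read 1983 and 2150 against 2204 and 1560, and the ventricular heavy chain gene myh7 read 183 and 88.7 against 153 and 76.5. The tropomyosin gene tpm4a read 122 and 89.8 against 105 and 68.7, and the calsequestrin gene casq2, which stores calcium in the reticulum, read 165 and 197 against 215 and 192. In all of these the arrays of a group spread as widely as the groups differed.

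Changes in structures shared by striated muscles ran from -0.87 to 1.06, with a median of -0.01. Of the 21 probe sets, 1 fell and 20 did not pass, while 0.658% of all tested probe sets were called lower. Before adjustment 0 were higher and 4 lower at a limma p under 0.05, against 5.1% and 6.84% of all probe sets. Actin from actc1b, the brightest member, read 17601 and 17346 in mutants and 16932 and 16304 in wildtype larvae on its brightest probe set, a change of 0.07 ± 0.13 (SE). These values are at the top of the array's range, where array signals are compressed. The tropomyosin gene tpm1 read 467 and 504 against 647 and 628, a change of -0.39 ± 0.13 (SE) with an unadjusted limma p of 0.025 and an adjusted p of 0.31, and its groups did not overlap. The myosin-binding protein gene mybphb read 2656 and 2276 against 2649 and 1780 and overlapped, as did tmod4, which caps thin filaments and read 397 and 383 against 435 and 354. The last was chosen after its values were seen.

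The desmin paralogues differed in their values. For desmb, the mutant arrays read 26.6 and 25.4 and the wildtype arrays 51.0 and 45.5, a 1.86-fold lower mean in mutants and a change of -0.87 ± 0.14 (SE) and an adjusted p by limma of 0.049. That call sat at the threshold: over the alternative settings its adjusted p ran from 0.037 to 0.48, and it was lost when any 1 array was left out, at 0.075 to 0.15. The values of desma were 543 and 386 in mutants against 359 and 318 in wildtype larvae, a change of 0.44 ± 0.20 (SE). Both mutant arrays were higher, the adjusted p by limma was 0.46, and desma was chosen after its values were seen. The difference between the paralogues was not tested. In a separate, shorter list of 4 smooth-muscle markers 2 were measured, tagln and acta2, which is itself a member. These 2 summed to 551 and 571 in mutants and 957 and 504 in wildtype larvae.

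Creatine kinases, which regenerate ATP from phosphocreatine, are given by where the enzyme sits in the cell. Of the cytosolic muscle forms, ckma was 5615 and 5340 in mutants and 5262 and 4708 in wildtype larvae, and ckmb was 4765 and 4253 against 4498 and 3838, with changes of 0.14 ± 0.14 and 0.12 ± 0.15 (SE). The mitochondrial form ckmt2a read 316 and 367 in mutants against 674 and 576 in wildtype larvae, a 1.83-fold lower mean and a change of -0.87 ± 0.16 (SE). Its limma adjusted p was 0.070, from 0.038 to 0.55 over the alternatives, and it passed only with an intensity-dependent robust prior. The other mitochondrial form, ckmt1, read 203 and 274 against 322 and 341, a change of -0.49 ± 0.18 (SE) with an adjusted p of 0.36 by limma. It was chosen after its values were seen. Mitochondrial and cytosolic forms were not tested against each other.

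**Figure D3:**
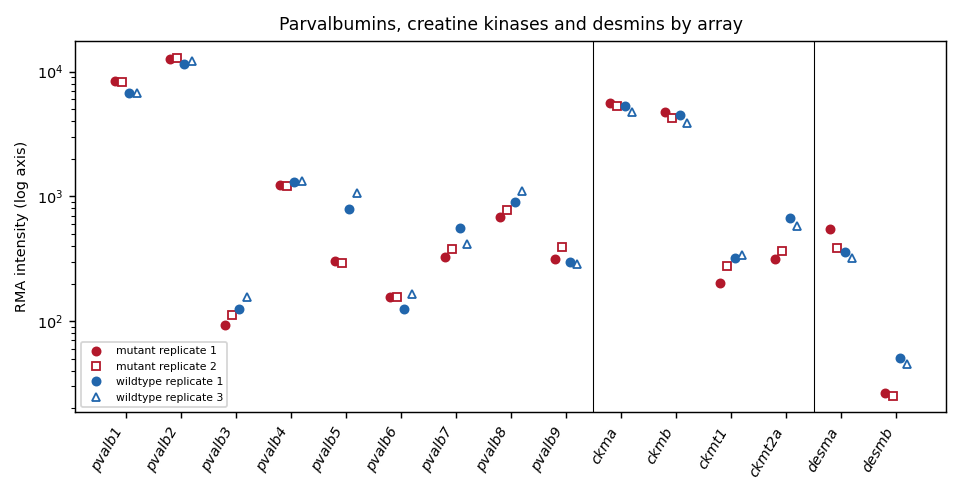
RMA intensity (log axis) on each array for the 9 parvalbumins, 4 creatine kinases and 2 desmins, separated by vertical lines, with red for mutant and blue for wildtype arrays. The mutant arrays sit clearly below the wildtype arrays for pvalb5, ckmt2a and desmb, while pvalb2, ckma and ckmb differ little.

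None of the 5 smooth-muscle probe sets passed in limma. Before adjustment 0 of the 5 had a limma p under 0.05, against 11.9% of all tested probe sets. The median change of the 5 was -0.03. It ran from -0.27 without wildtype replicate 3 to 0.21 without wildtype replicate 1, with -0.18 and 0.12 without mutant replicate 1 or 2. Smooth-muscle actin, acta2, read 330 and 338 in mutants and 636 and 300 in wildtype larvae. Wildtype replicate 1 alone was high, and without it the change was 0.15 in place of -0.39 ± 0.34 (SE). The light chain genes myl6 and myl9b read 227 and 227 against 223 and 186, and 27.5 and 25.6 against 24.6 and 22.3, with changes of 0.16 ± 0.15 and 0.17 ± 0.14 (SE). The light chain kinase gene mylka, whose product switches smooth-muscle contraction on, changed by -0.03 ± 0.21 (SE) between 19.8 and 28.0 intensity units. The desmin gene desmb, called lower above, is also named in the list of smooth-muscle markers below. It was placed with the shared striated class and is not among these 5 probe sets, so the contrast of the classes depends on that placement.

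In the group placed outside muscle 1 of 13 probe sets fell and 12 did not pass, while 0.658% of all tested probe sets were called lower. Before adjustment 1 was higher and 2 lower at a limma p under 0.05, against 5.1% and 6.84% of all probe sets. For pvalb5 the mutant arrays read 305 and 292 and the wildtype arrays 796 and 1071, a 3.13-fold lower mean and a change of -1.63 ± 0.18 (SE) and an adjusted p by limma of 0.014. This was the largest fall among the 77, its interval ran from -2.06 to -1.19, and the groups were far apart. Over the alternatives its adjusted p ran from 0.0010 to 0.51, and leaving out mutant replicate 1 or 2 gave 0.054 or 0.060, which ends the call. Where pvalb5 is expressed cannot be read from whole larvae. Its neighbours by name, pvalb7 and pvalb8, read 329 and 377 against 562 and 412, and 679 and 772 against 900 and 1097, with changes of -0.45 ± 0.19 and -0.46 ± 0.16 (SE) and unadjusted limma p-values of 0.057 and 0.030. By contrast pvalb9 read 313 and 395 against 298 and 288, a change of 0.26 ± 0.16 (SE). The nearest neighbour by name, pvalb6, read 157 and 157 against 125 and 166, a change of 0.13 ± 0.17 (SE) with overlapping groups. It was chosen after its values were seen.

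Markers of the epidermis and of neurons are given beside these parvalbumins. Epidermal markers, 8 measured of 10 listed, summed to 17207 and 16524 in mutants and 19550 and 20763 in wildtype larvae, and 1 of the 8, the keratin gene krt1-19d, fell. It read 98.6 and 86.4 in mutants against 377 and 561 in wildtype larvae, a change of -2.31 ± 0.22 (SE) and an adjusted p by limma of 0.0076. Before adjustment 3 of the 8 epidermal markers were lower at a p under 0.05. Neuronal markers, 8 of 9, summed to 2724 and 2555 against 3199 and 2586, with none passing and 1 higher at a p under 0.05 before adjustment. Of the 8 neuronal values 6 lay below 0, with a median of -0.15. Both mutant arrays were lower for 3 of them and higher for 1, orders shown by 26.3% and 14.9% of all tested probe sets. None of the 8 in either list lay in the dimmest 25% of probe sets. Their part in the parvalbumin values was not tested.

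Non-muscle cytoskeletal members lay on both sides of 0. The alpha-actinin gene actn1, which cross-links actin at adhesions, read 68.7 and 76.1 in mutants and 50.0 and 51.6 in wildtype larvae, a 1.43-fold ratio of means and a change of 0.50 ± 0.14 (SE) with a limma unadjusted p of 0.010 and adjusted p of 0.20. The regulatory light chain gene myl12.1 read 2050 and 2075 against 1501 and 1753 on its brightest probe set, a change of 0.35 ± 0.14 (SE). In both the mutant arrays lay above the wildtype arrays, while the groups overlapped on the other bright probe set of myl12.1, with a change of 0.24 ± 0.24 (SE). The non-muscle heavy chain gene myh9a and the brighter probe set of the tropomyosin gene tpm4b were chosen after their values were seen. Their changes were -0.13 ± 0.14 and -0.19 ± 0.15 (SE), with both mutant arrays lower in each. For myh9a the arrays read 6.97 and 8.15 in mutants against 8.49 and 8.25 in wildtype larvae. These values lie below 12.7, the bound of the array's dimmest probe sets, where a change was not separable from background. The tpm4b probe set read 17.1 and 20.7 against 21.8 and 21.6.

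Members were also split by signal level, a split that was made after the values were seen and has no test. Of the 23 member probe sets with a mean of 1000 or more, 22 had values above 0, with a median change of 0.27, and 0 passed in limma (before adjustment, 2 had a p under 0.05). Of all 389 probe sets that bright, 155 lay above 0, with a median of -0.05. By limma 9 of the 389 were called higher and 15 lower. Before adjustment 29 of the 389 were higher and 55 lower at a limma p under 0.05. Of the 54 dimmer members 24 lay above 0, with a median of -0.02, near the -0.04 of all tested probe sets. The bright members were largely fast-muscle genes, 14 of the 23. The dim fast members, 8 probe sets, had a median of -0.26 against 0.30 for the bright ones. Between 19 and 22 of the 23 bright members lay above 0 when any 1 array was left out, and their median was 0.16 without wildtype replicate 3. The fall of the pancreatic sums in the same arrays is given above, and its part in these values was not tested.

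**Figure D4:**
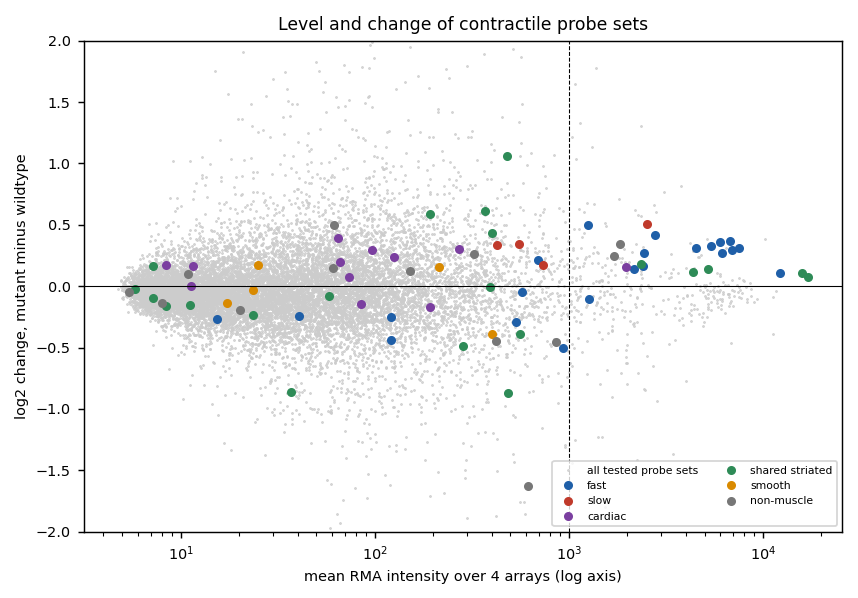
Log2 change (mutant minus wildtype, vertical axis, drawn from -2 to 2 so that larger changes of other genes are not shown) against mean RMA intensity over the 4 arrays (log axis) for all tested probe sets in grey and contractile probe sets coloured by class. The dashed line marks an intensity of 1000, above which 22 of 23 contractile probe sets lie above 0.

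Some members differed widely between arrays of the same group. In 7 of the 77 probe sets the arrays of at least 1 group differed 2-fold or more, or 9.09% against 1.4% of all probe sets. These were the 2 readable probe sets of ttn.2 and those of neb, myhz1.3, smyhc1, myh7 and acta2. A titin gene, ttn.2, read 1082 and 282 in mutants and 360 and 193 in wildtype larvae on 1 probe set, and 886 and 125 against 328 and 144 on the other. Mutant replicate 1 was thus the highest array for both. The first probe set changed by 1.06 ± 0.63 (SE), the largest positive value of the members, and its adjusted p by limma was 0.61. The other probe sets of ttn.2 read between 10.1 and 12.4 and between 5.62 and 6.04. The nebulin gene neb read 352 and 133 in mutants and 157 and 132 in wildtype larvae, so mutant replicate 1 alone stood apart. Without that array its change was -0.12 in place of 0.58 ± 0.43 (SE), and that of myhz1.3 was -0.42.

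Replicate 1 read higher in both groups for these genes other than acta2, whose mutant arrays read 330 and 338. Over the 77 members this held for 34, or 44.2% against 28.2% of all tested probe sets, and 1 member, ttn.2, was at least 2-fold higher in both groups, against 0.0323% of all probe sets. The reverse, replicate 1 at least 2-fold lower in both groups, held for 0 members and 0.071% of all probe sets. Replicate 1 also had the larger ratio of 3' to 5' signal on the array's actin control, at 26.8 against 15.8 in mutants and 38.6 against 22.6 in wildtype larvae. On the gapdh control the ratio was 1.96 against 1.55 and 2.46 against 1.73. On both controls the ratio was also lower in mutant replicate 1 than in wildtype replicate 1, and lower in mutant replicate 2 than in wildtype replicate 3, though the groups overlapped. This ratio is commonly read as a sign of RNA integrity. Its part in the titin, nebulin and heavy-chain values, and in the changes between mutant and wildtype larvae, was not tested. Only number 1 is shared by the groups, and the labels do not say that it marks a shared batch.

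**Figure D5:**
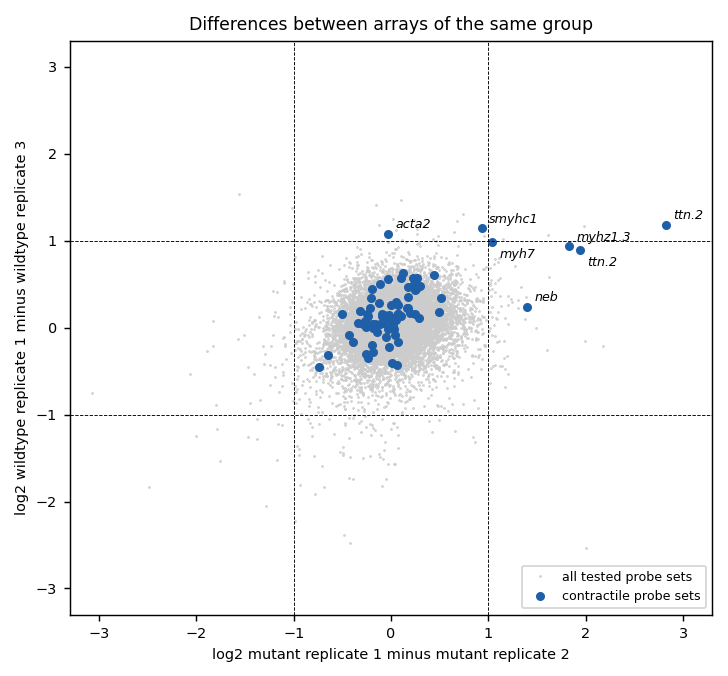
Log2 difference between the 2 mutant arrays (horizontal axis) and between the 2 wildtype arrays (vertical axis) for all tested probe sets in grey and contractile probe sets in blue, with dashed lines at 2-fold. The named probe sets of ttn.2, neb, myhz1.3, smyhc1, myh7 and acta2 lie outside the dashed lines of at least 1 group, all on the side where replicate 1 is higher except for the near-zero mutant difference of acta2.

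Of the 64 genes, 8 had more than 1 tested probe set, and in 1 of these, ttn.2, the log2 changes of the probe sets differed by more than 0.5. For actc1b, 2 probe sets read between 14610 and 17601 while another 2 read between 6.51 and 10.2, and for myl12.1 its dimmest probe set read between 5.16 and 5.86. Such dim probe sets lie in the dimmest 25% of the array, bounded by 12.7, and 11 of the 77 members were in it. Of these 11, 0 passed in limma, and 0 had an unadjusted p under 0.05.

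Muscle genes outside the rule were described from lists of related function, 1 probe set a gene, and none of these genes passed in limma. Not all listed genes were measured: 14 of 47 were for the Z-disc, M-band and thin filament, 15 of 24 for myogenic regulators and 15 of 23 for energy supply. For chaperones and atrophy ligases 15 of 24 were measured and for heart regulators 10 of 15. For smooth-muscle markers 8 of 20 are described, without desmb, which was measured as a member. For comparison, 9311 of all 15502 tested probe sets had values below 0, with a median of -0.04, and 11.9% had an unadjusted limma p under 0.05. Partners of the Z-disc, M-band and thin filament had 12 of 14 values above 0 and a median of 0.22 (0 at an unadjusted p under 0.05). The fast tropomyosin gene tpma was among them and read 5106 and 4528 in mutants against 3869 and 4001 in wildtype larvae, a change of 0.29 ± 0.14 (SE), and the filamin gene flncb, an actin cross-linker, changed by 0.58 ± 0.25 (SE). Myogenic regulators had 12 of 15 values below 0 and a median of -0.12 (1 at an unadjusted p under 0.05). The homeobox gene six4a read 28.7 and 27.6 against 44.1 and 35.2, and jam2a, which acts in myoblast fusion, changed by -0.31 ± 0.16 (SE), while the probe sets of the regulators myod1 and myf5, chosen after their values were seen, were among the dimmest 25% of the array.

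In the energy supply list 9 of 15 values lay below 0, with a median of -0.05 (1 at an unadjusted p under 0.05). That share and median were near those of all tested probe sets, 9311 of 15502 and -0.04. The glycerol-3-phosphate dehydrogenase gene gpd1b read 260 and 284 in mutants against 364 and 411 in wildtype larvae, a change of -0.51 ± 0.14 (SE) and an adjusted p by limma of 0.22, and gapdh changed by -0.32 ± 0.14 (SE). Genes of excitation-contraction coupling and the neuromuscular junction had a median of 0.05 over 6 measured of 27 listed genes (1 at an unadjusted p under 0.05). The measured genes were musk, chrne, rapsn, ache, chrna1 and srl, and the listed ryanodine receptor genes were not among them. The receptor kinase gene musk, which organises the junction, changed by 0.37 ± 0.15 (SE). The acetylcholine receptor subunit gene chrne changed by 0.26 ± 0.17 (SE). In the dystrophin complex and basement membrane list the median over 8 measured of 25 listed genes was 0.10 (2 at an unadjusted p under 0.05). The laminin gene lamc1 read 20.0 and 24.3 against 13.7 and 13.9, and the dystroglycan gene dag1 read 78.1 and 79.6 against 59.3 and 63.7.

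Chaperones and atrophy ligases of muscle had a median of 0.05 over 15 genes (2 at an unadjusted p under 0.05). The small heat shock gene hspb8 read 63.7 and 41.7 in mutants against 34.5 and 30.1 in wildtype larvae, a change of 0.66 ± 0.22 (SE), and fbxo32, the atrophy ubiquitin ligase atrogin-1, read 15.0 and 19.8 against 28.4 and 21.9, a change of -0.51 ± 0.20 (SE). Limma adjusted p-values were 0.31 and 0.39. Heart regulators had 9 of 10 values below 0, against 9311 of 15502 over all tested probe sets. Their median was -0.15 (0 at an unadjusted p under 0.05), and the 2 with the smallest p, bmp4 and gata5, changed by -0.30 ± 0.13 and -0.21 ± 0.16 (SE). Smooth-muscle markers had a median of -0.03 over 8 genes (1 at an unadjusted p under 0.05), and the calponin genes cnn2 and cnn3a changed by 0.64 ± 0.21 and 0.19 ± 0.13 (SE). That list also named desmb, which was called lower as a member above and is not counted among the 8 genes.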

How the data were processed

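Whole-larva RNA of 2 mutant and 2 wildtype samples was measured on 1-colour Affymetrix zebrafish arrays. The authors deposited linear intensities, 1 value a probe set and array, between 4.48 and 17601 where tested. The submitters' processing notes name RMA, a method that corrects background, quantile-normalizes arrays together, summarises probes and compresses changes of dim probe sets. Changes of very bright probe sets are compressed by the limited range of array signals. For RMA's version, nothing is stated. Detection calls were not used here. One protocol line gives the age in days, and hours were used, as in the source label and design text.

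The 115 array controls were left out. A table of platform annotation gave 1 gene symbol for 10795 of the 15502 tested probe sets, several for 135 and none for 4572. The Entrez ID gave a current symbol for 10718 of the 10802 probe sets with 1 symbol, array controls included, and none of the 81 members changed by it. After log2(intensity + 1), a model was fitted in R 4.3.3 with limma 3.58.1 (lmFit, eBayes with 1 prior variance), mutant against wildtype as the only term, with 2 residual and 4.04 prior degrees of freedom. Tests were two-sided with Benjamini-Hochberg adjustment over all 15502 probe sets, called under 0.05. The fit was tested on simulated data. The number of arrays limits the precision.

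Named members were those called, the 5 brightest and the 2 largest changes each way of each class, and genes whose probe sets disagreed, and 2 genes were named per related list. Exceptions are marked. Members and lists were chosen with earlier results of these data known.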

Additional observations from a re-analysis of the deposited data

Results flagged for a closer look

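The actc1b array controls are outside the tests. For 3 of the 4 controls each mutant array read higher than either wildtype array, with log2 differences (mutant minus wildtype) of 0.10 for the 3' probe set, 0.29 for the middle and 0.41 for a 5' probe set that can cross-hybridise. That order was shown by 14.9% of all tested probe sets, and all 4 controls measure the same gene. The remaining 5' probe set read 673 and 1130 in mutants against 445 and 723 in wildtype larvae, a log2 difference of 0.62 with overlapping groups. The difference was thus smallest at the 3' end. The arrays also differed in the ratio of 3' to 5' signal on this control, as given above, and its part in these differences was not tested. The hybridisation controls moved the other way, by -0.49.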

How the results depend on the processing

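Against 2 members called in the main setting, 1 was called after quantile normalization or median centring, 34 after scaling on the hybridisation controls, 0 without variance moderation (12 at an unadjusted p under 0.05) or with a pseudocount of 16 (18 unadjusted), and 1 in the muscle classes alone; leaving out 1 array gave 0 to 1. Over all probe sets 233 were called, and 5223 with control scaling, 394 with a trended robust prior, 0 unmoderated (1298 unadjusted), 80 with the larger pseudocount and 154 to 310 without 1 array. Control scaling raised the median log2 changes to 0.63 for all members, 0.68 for fast, 0.83 for slow, 0.66 for cardiac, 0.46 for smooth, 0.59 for non-muscle and 0.48 for shared striated members, whose median was 0.092 without the dimmest 25%. Leaving out 1 array moved these medians over 0.018 to 0.22 (all), 0.039 to 0.33 (fast), 0.17 to 0.43 (slow), 0.022 to 0.28 (cardiac), -0.27 to 0.21 (smooth), -0.082 to 0.024 (non-muscle) and -0.039 to 0.14 (shared). Signs of changes below 0 turned with control scaling, which shifts every probe set up: pvalb3 0.051, casq2 0.32, atp2a2a 0.35, acta2 0.10, mylka 0.46, pvalb8 0.034, pvalb7 0.042, tpm1 0.10, dim ttn.2 0.33 and 0.47, six4a 0.019, jam2a 0.18, gapdh 0.17, bmp4 0.19 and gata5 0.28. In the main setting pvalb3, pvalb8, tpm1 and six4a had changes of -0.44, -0.46, -0.39 and -0.47, each at an unadjusted limma p under 0.05. With control scaling the change of acta1a came to -0.017, that of gpd1b to -0.018 and that of fbxo32 to -0.019. Signs also turned for mylka (0.018) and ttn.2 (4.1e-05) by quantile normalization, for mylka (0.024) and ttn.2 (0.032) by centring, and, averaging a gene's probe sets, for atp2a2a (0.0093), actc1b (-0.017) and ttn.2 (0.38). Without 1 array, ranges crossed 0 for myhz1.3 (-0.42 to 1.42), smyhc1 (-0.24 to 0.91), actc1a (-0.094 to 0.40), myl7 (-0.070 to 0.67), myh7 (-0.28 to 0.76), tpm4a (-0.0066 to 0.60), acta2 (-0.93 to 0.15), mylka (-0.27 to 0.21), mybphb (-0.11 to 0.47), neb (-0.12 to 1.28) and ttn.2 (-0.80 to 2.02 on a bright and -0.064 to 0.024 on a dim probe set). Apart from control scaling and, for the shared median, the dimmest 25%, the cause was not tested. No paired analysis was possible because the groups share only replicate number 1. When a group is left with 1 array, that array is assumed to vary like the other group. With 2 arrays a group and no detection calls, a change of a dim probe set was not separable from background.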
